A study of Saccharomyces cerevisiae with 3 samples.

Results

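The genes described here are those of the early and late secretory pathway in the budding yeast Saccharomyces cerevisiae: protein entry into the endoplasmic reticulum (ER), the COPII and COPI vesicle coats, vesicle tethering, membrane fusion and the exocyst. A gene was taken where its name in the array files was SEC followed by a number, or where it was 1 of 20 other listed names. The rule found 54 of the 6256 genes on the array, measured on 91 spots. Of these, 35 carried a SEC name and 19 came from the list; the listed name KAR2-like matched no gene spot. They were sorted by role into translocation (7 genes), COPII (7), COPI and Arf (10), tethering (4), ER-Golgi SNAREs with their disassembly factors (7), exocyst (8), post-Golgi fusion (8), and genes that supply sugar precursors or handle lipids (3).

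The groups were an hho1 deletion strain, which has no linker histone, heated to 37 °C for 15 min; the same strain kept at 25 °C; and wild-type cells heated to 37 °C for 15 min. RNA of each was hybridised on a 2-colour Agilent array together with RNA of the wild type at 25 °C, which served as common reference and as the only control. Cultures in rich medium had reached an optical density of 0.5, and the labels did not state the strain background. Each group had 1 array, so no difference below has a replicate check, no test was possible, and spot SDs cover the spread within an array only.

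Secretory and membrane proteins enter the ER through a channel built around Sec61, either while they are made, guided by the signal recognition particle, or afterwards with the help of the Sec62 and Sec63 complex. COPII coats carry cargo forward from the ER to the Golgi, and COPI coats, recruited by the small GTPase Arf1, return proteins to the ER and move them within the Golgi. Rab GTPases and tethers capture vesicles, SNARE proteins fuse them with the target membrane, and at the plasma membrane of the bud the exocyst tethers secretory vesicles before fusion. Many SEC genes were found as temperature-sensitive yeast mutants that stop secretion when warmed.

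Between 90% and 95.1% of the gene spots were well above background, depending on the array and the dye. Both deletion arrays lay on 1 slide with the sample in Cy3, and the wild-type array lay on another slide with the sample in Cy5, so the strains at 37 °C cannot be told apart from slide, scan or dye. HHO1 itself had log2 ratios over the wild type at 25 °C of -4.26 in the deletion at 37 °C, -4.34 in the deletion at 25 °C and -0.34 in the wild type at 37 °C and was thus low only in the deletion samples. HSP104, a heat-induced chaperone, gave a heat response of 5.43 in the deletion and 5.79 in the wild type on the log2 scale. All 54 secretory pathway genes were well above background in all 6 channels, and none of their spots was flagged; 37 had 2 spots and 17 had 1.

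A gene is said to have risen or fallen where the mean of its log2 ratios reached 1 or -1, a factor of 2, and every spot lay 0.58 or more to that side. Ratios are relative to the other genes of an array, so a change in total messenger RNA per cell cannot be seen. The heat response of the deletion is its 37 °C ratio minus its 25 °C ratio, both over the common reference; that of the wild type is its ratio over the wild type at 25 °C. Within 15 min of heat, most transcripts of the secretory machinery stayed within 0.5 of 0 on the log2 scale. In the deletion, 0 of 54 genes rose, against 11.5% of 5918 genes measured, and 2 fell, against 15.8%. In the wild type, 0 of 54 rose, against 11.6% of 5974 genes measured, and the same 2 fell, against 16.4%. With the scanner software's processed signals or the deposited table, SNC1 also rose in the wild type, giving 1 of 3 called genes as risen. Over all genes, 52.5% and 42.9% of the called genes had risen in those settings. When loess was replaced by median centring, SNC1 and SEC9 rose and SEC14 was no longer called. This gave 2 of 3, against 49.6% over all genes, and each of these shares rests on 3 genes.

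The heat responses of the 54 genes lay between -1.51 and 0.75 in the deletion and between -1.46 and 0.92 in the wild type. Their medians were -0.08 in the deletion and -0.11 in the wild type; the medians of all genes measured were -0.004 and 0.000. Under median centring the wild-type median of the 54 genes was 0.26, against 0.06 over all genes, so its sign turned. Within 0.5 of 0 on the log2 scale lay 35 of the 54 genes (64.8%) in the deletion, where 48.9% of all genes did, and 38 (70.4%) in the wild type, where 48.9% of all genes did. Over the 9 processing settings these shares ran from 61.1% to 72.2% in the deletion and from 64.8% to 72.2% in the wild type, against 36.8% to 54.9% and 37.0% to 55.1% of all genes.

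**Figure D1:**
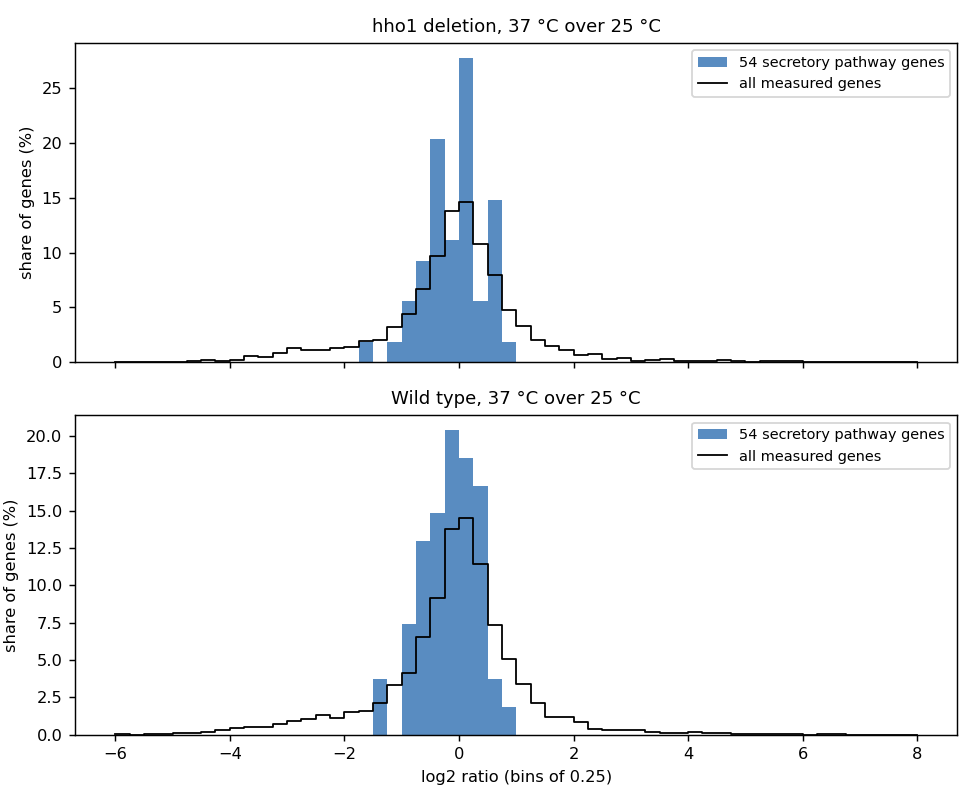
Share of genes (%, vertical axis) by log2 heat response in bins of 0.25 (horizontal axis), in the hho1 deletion (top) and the wild type (bottom), 1 array per group. Filled bars are the 54 secretory pathway genes and the black outline all measured genes; the 54 genes lie between -1.51 and 0.75 in the deletion and between -1.46 and 0.92 in the wild type, while the outline reaches far beyond on both sides.

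The genes that fell, SEC53 and SEC14, belong to precursor and lipid supply. In the deletion's heat response SEC62 of the translocation group also fell under median centring (-1.12) and in the deposited table (-1.02), and ARF1 fell in 3 other settings. SEC53 encodes phosphomannomutase, which makes a mannose precursor for protein glycosylation and membrane anchors. Its signal was 5721 in the deletion at 37 °C against 16162 in the wild type at 25 °C on the same array, 15531 against 15434 on the array of the deletion at 25 °C, and 5597 against 15391 on that of the wild type at 37 °C. Both heated samples were far below the reference beside them. The unheated deletion was close to it, with a log2 ratio of 0.009 (-0.32 to 0.02 over the settings). The heat response was -1.51 in the deletion (spot SD 0.0139, 2 spots), a fall of 2.84-fold, and -1.46 in the wild type (spot SD 0.0327, 2 spots), a fall of 2.75-fold.

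SEC14 encodes the phosphatidylinositol and phosphatidylcholine transfer protein that the late Golgi needs for vesicle formation. On its 1 spot the signal was 2006 in the deletion at 37 °C against 4211 in the wild type at 25 °C, 4425 against 4357 for the deletion at 25 °C, and 2072 against 5102 for the wild type at 37 °C. Again only the heated samples were low, although the log2 ratio of the unheated deletion ran from -0.40 to 0.07 over the settings. The log2 heat response was -1.09 in the deletion and -1.30 in the wild type; comparing channels of the same dye across arrays gave -0.95 in both, short of the size rule. SEC59, the dolichol kinase of the same group, had heat responses of -0.45 in the deletion and -0.44 in the wild type and was not called.

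All 7 translocation genes had heat responses below 0 in both strains, with medians of -0.35 in the deletion and -0.61 in the wild type, although none passed the size rule apart from SEC62 in the settings given above, and under median centring 5 of 7 were below 0 in the wild type. Among all genes measured, 2979 of 5918 were below 0 in the deletion and 2986 of 5974 in the wild type. SEC65, a subunit of the signal recognition particle, was the lowest in the wild type. Its signal was 854 in the deletion at 37 °C against 1479 in the wild type at 25 °C, 1604 against 1760.2 for the deletion at 25 °C, and 758 against 1419 for the wild type at 37 °C. Both heated samples were well below the reference beside them, while the unheated deletion was close to it. The heat response of SEC65 was -0.66 in the deletion (spot SD 0.0035, 2 spots) and -0.90 in the wild type (spot SD 0.0276, 2 spots).

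SEC62, a membrane protein of the post-translational import complex, had -0.84 in the deletion and -0.58 in the wild type. SEC63, its partner that recruits the ER chaperone Kar2, had -0.22 and -0.75 in the same order of strains, and SEC66 and SEC72 of that complex had -0.34 and -0.27 in the deletion against -0.81 and -0.26 in the wild type. SEC61, the channel itself, had -0.51 in the deletion and -0.61 in the wild type. SEC11, the catalytic subunit of signal peptidase, which cuts signal sequences from arriving proteins, had -0.35 in the deletion and, as the highest of the translocation genes there, -0.10 in the wild type. KAR2, the chaperone on the luminal side of the channel and not among the 54 genes, rose in both strains, by 2.97 in the deletion and 3.14 in the wild type on the log2 scale (1 spot).

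The exocyst genes lay on the other side of 0. Of the 8 subunits, 8 had a heat response above 0 in the deletion and 7 in the wild type, with medians of 0.46 and 0.34, and none passed the size rule. Among all genes measured, 2939 of 5918 lay above 0 in the deletion and 2988 of 5974 in the wild type. SEC8 was the highest in both strains. Its signal was 1006 in the deletion at 37 °C against 635 in the wild type at 25 °C, 627 against 668 for the deletion at 25 °C, and 1020.3 against 727 for the wild type at 37 °C. Only the heated samples exceeded the reference beside them. On the log2 scale its heat response was 0.75 in the deletion and 0.49 in the wild type (1 spot). SEC10 had 0.23 in the deletion and was the lowest exocyst gene in the wild type, at -0.004, where its signal was 1294 against 1298 in the reference. The remaining subunits SEC3, SEC5, SEC6, SEC15, EXO70 and EXO84 lay between 0.15 and 0.56 in the deletion and between 0.02 and 0.44 in the wild type.

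The translocation and exocyst genes did not overlap in their heat responses in either strain. The highest translocation gene stood at -0.22 and the lowest exocyst gene at 0.15 in the deletion, and at -0.098 and -0.004 in the wild type, so that in the wild type the gap was small. The exocyst median exceeded the translocation median by 0.81 in the deletion (0.74 to 0.95 over 9 processing settings) and by 0.95 in the wild type (0.80 to 1.13). The groups stayed apart in 9 of 9 settings in the deletion and in 8 of 9 in the wild type; under median centring the highest translocation gene in the wild type reached 0.29, the lowest exocyst gene was 0.19, and 5 of 7 translocation genes were below 0. Subunits of a complex are not replicates and the 2 strains were each measured once after heat, so this separation carries no test.

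**Figure D2:**
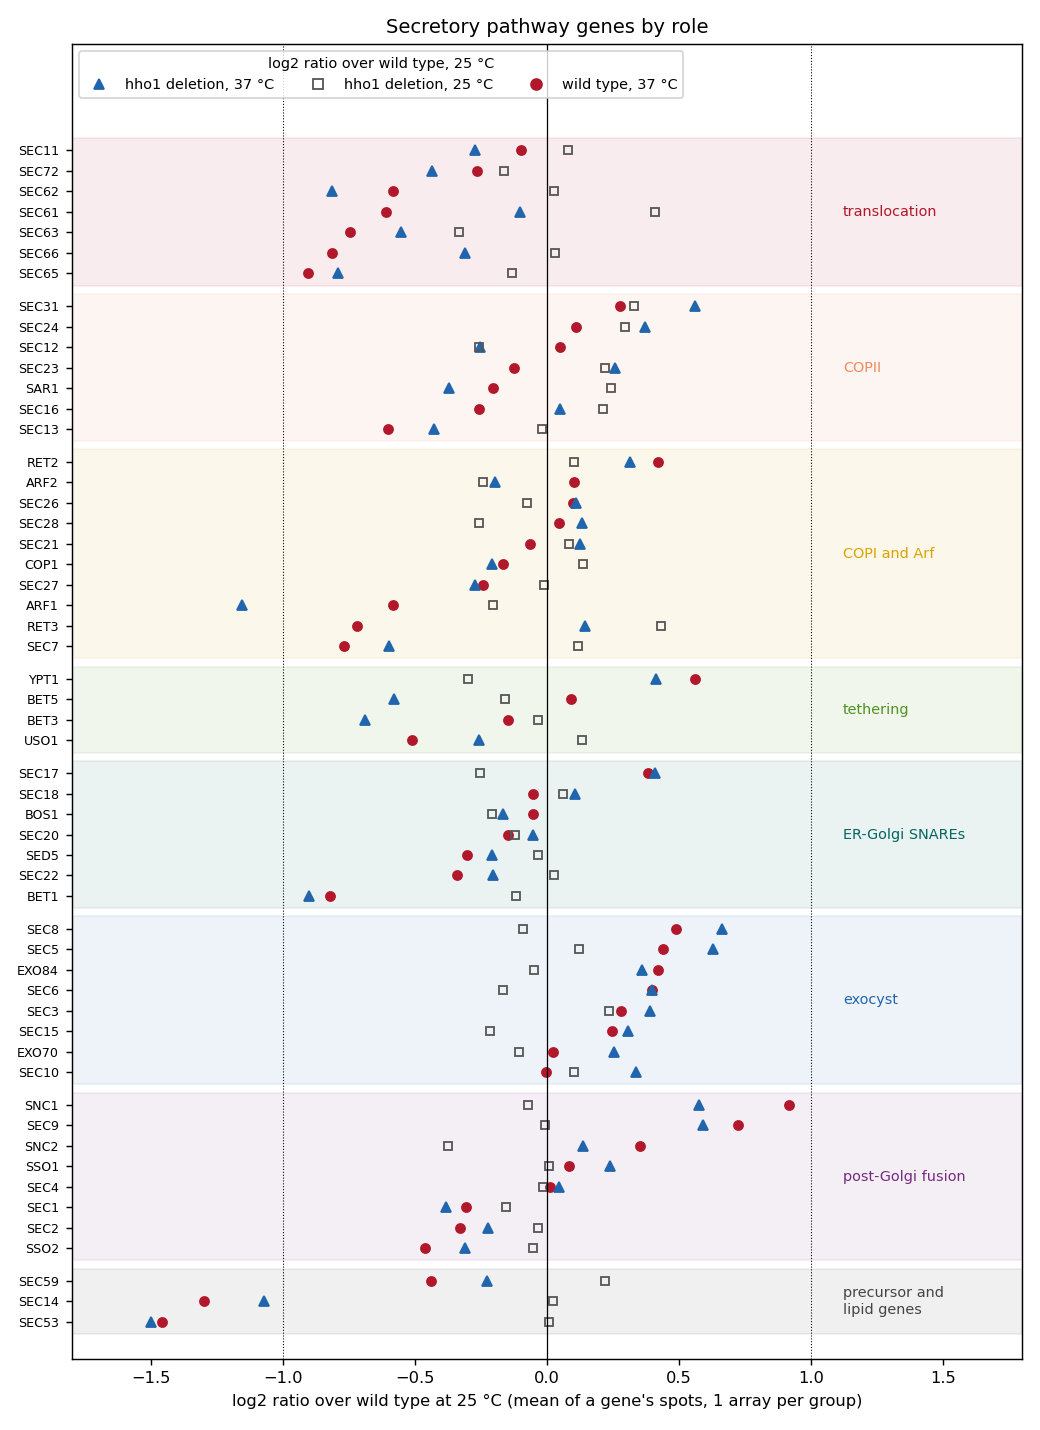
Log2 ratio over the wild type at 25 °C (horizontal axis) of the 54 genes, grouped by role and sorted by the wild-type value; triangles are the hho1 deletion at 37 °C, open squares the hho1 deletion at 25 °C and circles the wild type at 37 °C, each the mean of a gene's spots on 1 array. Dotted lines mark the size rule of 1; all translocation triangles and circles lie left of 0 (5 of 7 circles under median centring), all exocyst triangles lie right of it (7 of 8 under median centring), and SEC53 and SEC14 lie beyond -1 in both heated samples.

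COPII genes were spread around 0, with medians of 0.01 in the deletion (-0.19 to 0.09 over the settings) and -0.13 in the wild type (-0.20 to 0.26) and no gene past the rule. SEC31, which with SEC13 forms the outer cage of the coat, was the highest in both strains. Its signal was 2265.5 in the deletion at 37 °C against 1535 in the wild type at 25 °C, 1657 against 1319 for the deletion at 25 °C, and 2046 against 1688 for the wild type at 37 °C. It exceeded the reference on all 3 arrays, and its heat response was 0.23 in the deletion and 0.28 in the wild type. In the unheated deletion its ratio over the reference ran from -0.24 to 0.35 over the settings, so the sign there turned. Its partner SEC13, which is also a component of the nuclear pore, had -0.41 in the deletion and, as the lowest COPII gene there, -0.60 in the wild type. The cage partners therefore stood at opposite ends of the COPII genes in the wild type. SAR1, the GTPase that starts coat assembly, had -0.61 in the deletion and -0.21 in the wild type, while SEC12, its exchange factor, had 0.01 and 0.05. The inner coat genes SEC23 and SEC24 had 0.04 and 0.08 in the deletion and -0.13 and 0.11 in the wild type, and SEC16, the scaffold of ER exit sites, had -0.16 and -0.26 in the same order of strains.

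Most coatomer subunits of COPI also lay near 0. COP1, SEC21, SEC26, SEC27, SEC28 and RET2 lay between -0.34 and 0.39 in the deletion and between -0.24 and 0.42 in the wild type. RET2, the delta subunit, had 0.21 in the deletion and, as the highest COPI gene there, 0.42 in the wild type (spot SD 0.0164, 2 spots). SEC7, the exchange factor that activates Arf at the late Golgi, was the lowest in the wild type. Its signal was 2669.9 in the deletion at 37 °C against 4038 in the wild type at 25 °C, 4179.9 against 3857 for the deletion at 25 °C, and 2277 against 3878 for the wild type at 37 °C. The heated samples were low and the unheated deletion was not, with heat responses of -0.71 in the deletion and -0.77 in the wild type.

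ARF1 and ARF2 encode near-identical Arf GTPases, of which Arf1 is the more abundant. ARF1 had a signal of 7021 in the deletion at 37 °C against 15634 in the wild type at 25 °C, 15161 against 17452 for the deletion at 25 °C, and 8577 against 12845 for the wild type at 37 °C. ARF2 had 13191 against 15103, 14822 against 17534, and 14080.0 against 13128 on the same arrays in the same order. ARF1 was below the reference in both heated samples, with log2 ratios of -1.15 in the deletion and -0.58 in the wild type. ARF2 lay somewhat below it in the heated deletion and above it in the heated wild type. Over the settings these ARF2 ratios ran from -0.83 to 0.01 and from -0.07 to 0.40, so both signs turned in some setting. The heat response of ARF1 was -0.95 in the deletion and -0.58 in the wild type, and that of ARF2 was 0.05 and 0.10. The difference of ARF1 minus ARF2 was -0.999 in the deletion (-1.02 to -0.94 over the settings) and -0.68 in the wild type (-0.79 to -0.66). How far the probes of such similar genes tell the copies apart was not tested, here or for the other pairs below.

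Among the tethering genes the small GTPase and its partners had different values. YPT1, the Rab that directs ER-derived vesicles to the Golgi, had a signal of 8003 in the deletion at 37 °C against 6016 in the wild type at 25 °C, 6639 against 8176 for the deletion at 25 °C, and 7398.5 against 5011 for the wild type at 37 °C. It exceeded the reference only in the heated samples, and its heat response was 0.71 in the deletion (spot SD 0.0198, 2 spots) and 0.56 in the wild type (spot SD 0.017, 2 spots). Over the settings, the YPT1 ratio over the reference ran from -0.08 to 0.68 in the heated deletion. In the unheated deletion it ran from -0.50 to 0.13, so both signs turned in some setting. USO1, a long coiled-coil tether, had a signal of 1620.4 in the deletion at 37 °C against 1935.5 in the wild type at 25 °C, 2363 against 2156 for the deletion at 25 °C, and 1466 against 2089 for the wild type at 37 °C. Here the heated samples were below the reference, and the heat response was -0.39 in the deletion and -0.51 in the wild type. BET3 and BET5, subunits of the TRAPP complex that activates Ypt1, had -0.65 and -0.42 in the deletion and -0.15 and 0.09 in the wild type, each on 1 spot.

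The SNAREs of ER-Golgi traffic had medians of 0.04 in the deletion (-0.08 to 0.10 over the settings) and -0.15 in the wild type (-0.25 to 0.19). SEC17, the adaptor through which the ATPase Sec18 takes SNARE complexes apart, was the highest. Its signal was 4000.4 in the deletion at 37 °C against 3016 in the wild type at 25 °C, 2964 against 3536.5 for the deletion at 25 °C, and 3604 against 2764 for the wild type at 37 °C. The heated samples exceeded the reference and the unheated deletion was below it, with heat responses of 0.66 in the deletion and 0.38 in the wild type. SEC18 itself had 0.05 and -0.05. BET1, a SNARE on ER-derived vesicles, was the lowest, with a signal of 381 in the deletion at 37 °C against 711 in the wild type at 25 °C, 791 against 859 for the deletion at 25 °C, and 362 against 641 for the wild type at 37 °C. Both heated samples were low, and the heat response was -0.78 in the deletion and -0.82 in the wild type. The partners BOS1, SEC22 and SED5 and the retrograde SNARE SEC20 lay between -0.23 and 0.07 in the deletion and between -0.34 and -0.05 in the wild type.

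At the plasma membrane, the vesicle SNAREs Snc1 and Snc2 pair with Sec9 and with Sso1 or Sso2. SNC1 had a signal of 1651 in the deletion at 37 °C against 1109 in the wild type at 25 °C, 1092 against 1147 for the deletion at 25 °C, and 1844.5 against 978 for the wild type at 37 °C. It was above the reference only in the heated samples, and its heat response was 0.65 in the deletion (spot SD 0.014, 2 spots) and 0.92 in the wild type (spot SD 0.0034, 2 spots), the highest of the 54 genes there. SNC2 had a signal of 1674 against 1524, 1512 against 1963 and 1881 against 1475 on the same arrays, with heat responses of 0.51 and 0.35. In the unheated deletion SNC2 was below its reference, and SNC1 was close to it. SNC1 minus SNC2 was 0.13 in the deletion (0.12 to 0.45 over the settings) and 0.57 in the wild type (0.51 to 0.63).

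SEC9 had heat responses of 0.60 in the deletion and 0.72 in the wild type. SSO1 had a signal of 2067 in the deletion at 37 °C against 1751 in the wild type at 25 °C, 1923 against 1912 for the deletion at 25 °C, and 1995.5 against 1883 for the wild type at 37 °C. SSO2 had 1489 against 1848, 2155.5 against 2238 and 1532 against 2112 on those arrays. In both heated samples SSO1 was above and SSO2 below the reference. The heat responses were 0.23 and 0.08 for SSO1 and -0.26 and -0.46 for SSO2, in the deletion and the wild type in that order, and SSO1 minus SSO2 was 0.49 in the deletion (0.46 to 0.65) and 0.55 in the wild type (0.52 to 0.57). Of the regulators of this step, the Rab gene SEC4 had 0.06 and 0.01, its exchange factor SEC2 had -0.19 and -0.33, and SEC1, which binds the assembled SNAREs, had -0.23 and -0.31.

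**Figure D3:**
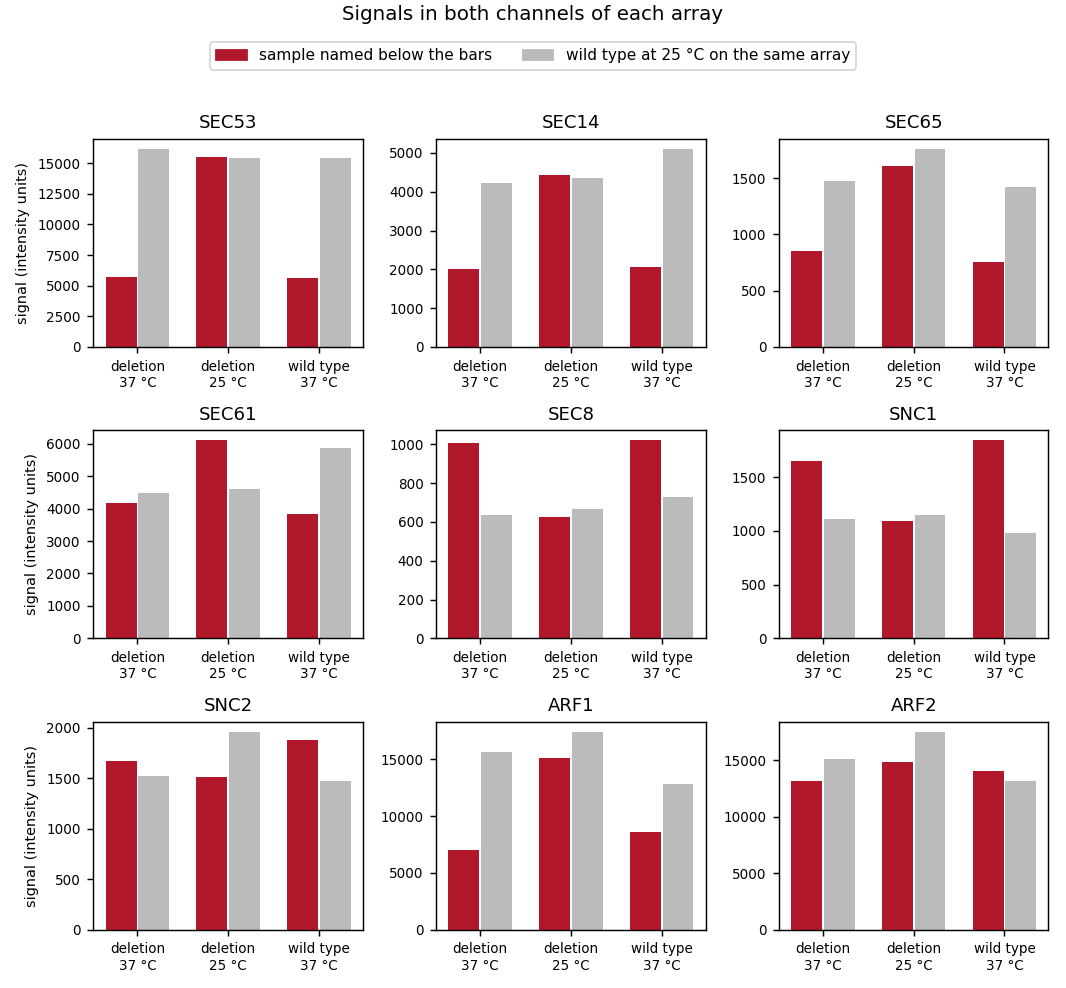
Signal in intensity units (vertical axes, from 0; loess-adjusted, offset of 50 included) of 9 genes on the 3 arrays; red bars are the sample named below, grey bars the wild type at 25 °C on the same array, and bars are the mean of a gene's spots. SEC53, SEC14, SEC65 and ARF1 are lower in both heated samples than in the reference beside them (SEC53 at 5721 against 16162 in the deletion at 37 °C), SEC8 and SNC1 are higher.

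Over the 54 genes the heat responses in both strains ran together, with a Pearson r of 0.90 and a Spearman rho of 0.88 between the deletion and the wild type. No RNA channel is shared by these responses, though all carry the same reference RNA and the same probes, and genes are not independent replicates. The sign differed for 7 of the 54 genes, of which BET5 had the largest value in size, -0.42 in the deletion against 0.09 in the wild type. Neither the correlations nor this count was set against all genes, so whether they are particular to the 54 was not tested.

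**Figure D4:**
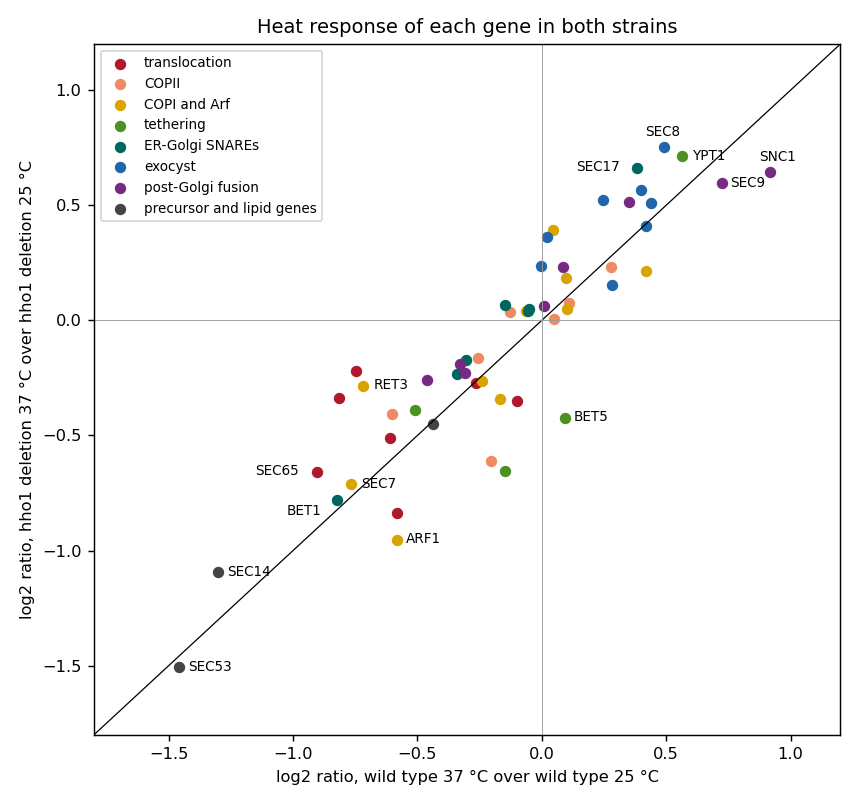
Log2 heat response of each of the 54 genes in the hho1 deletion (vertical axis) and in the wild type (horizontal axis), coloured by role, with the line of equal response; each point is the mean of a gene's spots, 1 array per group. SEC53 and SEC14 lie lowest in both strains, SNC1 has the highest wild-type value (0.92), and BET5 lies farthest off among genes of opposite sign (-0.42 in the deletion, 0.09 in the wild type).

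Set directly against the wild type at 25 °C, the deletion at 37 °C had 0 of the 54 genes risen, against 11.5% of 5946 genes measured, and 3 fallen, against 15.3%. These were SEC53 at -1.50, ARF1 at -1.15 (spot SD 0.0024, 2 spots) and SEC14 at -1.07. The ARF1 value was -0.83 in the same-dye comparison, short of the rule. The median of the 54 genes was -0.14, that of all genes -0.03, and the part medians were -0.44 for translocation, 0.05 for COPII, -0.04 for COPI and Arf, -0.42 for tethering, -0.17 for the ER-Golgi SNAREs, 0.37 for the exocyst, 0.09 for post-Golgi fusion and -1.07 for the precursor and lipid genes; the signs for COPII, for COPI and Arf and for post-Golgi fusion turned in some settings. This comparison shares the heated deletion sample with the deletion's heat response and the reference RNA with the wild type's, so it adds no separate support to either.

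At 25 °C the secretory genes of the deletion were close to the wild type. None of the 54 rose, against 0.0501% of 5984 genes measured, and none fell, against 0.0167%. Every one of the 54 had a ratio within 0.5 of 0 on the log2 scale, as did 98.6% of all genes, with a median of -0.02 (-0.02 over all genes) and a range from -0.38 for SNC2 to 0.43 for RET3. Of the COPII genes, 5 of 7 lay between 0.21 and 0.33, which gave that part the highest median, 0.22. The wild-type reference channels on both deletion arrays hold the same RNA, and between them the 54 genes differed with an SD of 0.17 on the log2 scale, from -0.24 for SEC28 to 0.43 for SEC31. The COPII median at 25 °C was -0.11 when channels of the same dye were compared, and RET3 was then at -0.44.

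After heat, the deletion at 37 °C over the wild type at 37 °C showed 0 of the 54 genes risen, against 0.187% of 5895 genes measured, and 0 fallen, against 0.407%. The median was 0.09 (0.01 over all genes), and 48 of 54 genes (88.9%) lay within 0.5 of 0, as did 89.2% of all genes; under median centring 18 (33.3%) did, against 42.1% of all genes. The 6 genes beyond 0.5 were named after their values were seen, apart from ARF1: RET3 at 0.86, SEC61 at 0.51 and SEC66 at 0.50, and BET3 at -0.54, ARF1 at -0.57 and BET5 at -0.67.

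RET3, the zeta subunit of coatomer, had a signal of 3172 in the deletion at 37 °C against 2868 in the wild type at 25 °C, 3527 against 2619 for the deletion at 25 °C, and 2498 against 4110.4 for the wild type at 37 °C (1 spot). It was above the reference in both deletion samples and below it in the wild type. Over the settings its ratio ran from -0.38 to 0.19 in the heated deletion and from -0.44 to 0.47 in the unheated deletion. Both signs thus turned in some setting, while the wild type stayed below 0 (-0.75 to -0.019). Heat gave -0.28 in the deletion and -0.72 in the wild type. Comparing channels of the same dye gave -0.36 for RET3 and -0.33 for SEC61, so for these genes the sign of the strain difference turned between the within-array and same-dye comparisons. The same-dye comparison sets channels against each other across slides, so dye and slide cannot be told apart here. SEC66 had 0.17, BET3 -0.22, ARF1 -0.03 and BET5 -0.23 in the same-dye comparison, all smaller than within arrays; under median centring RET3 had 0.11, SEC61 -0.27 and SEC66 -0.22, and BET3, ARF1 and BET5 had -1.20, -1.46 and -1.13.

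The strain difference at 37 °C ran with gene length among the 54 genes, with a Pearson r of 0.41 and a Spearman rho of 0.52; over 5572 genes with a length the values were 0.35 and 0.36. Lengths came from the current yeast gene table and include introns. The deletion at 25 °C over the wild type at 25 °C also ran with length, with r of 0.38 and rho of 0.39 among the 54 genes and 0.16 and 0.21 over all genes. For the heat responses r with length was 0.21 in the deletion and 0.13 in the wild type, against 0.02 and -0.04 over all genes. The exocyst genes, which run from 1872 bp to 4011 bp, had a median strain difference at 37 °C of 0.14, and the tethering genes, of which BET3, BET5 and YPT1 are short, one of -0.35. The translocation genes had a median of 0.11, the ER-Golgi SNAREs one of 0.09, and RET3, at 570 bp, had the highest value of the 54, 0.86. These correlations and medians are from the main setting. Over the settings the exocyst median ran from -0.365 to 0.165 and the translocation median from -0.557 to 0.141. The ER-Golgi SNARE median ran from -0.551 to 0.156, so the signs of these medians turned. The tethering median stayed below 0 (-1.064 to -0.125). The part played by slide, dye or probe in the relation with length was not tested.

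**Figure D5:**
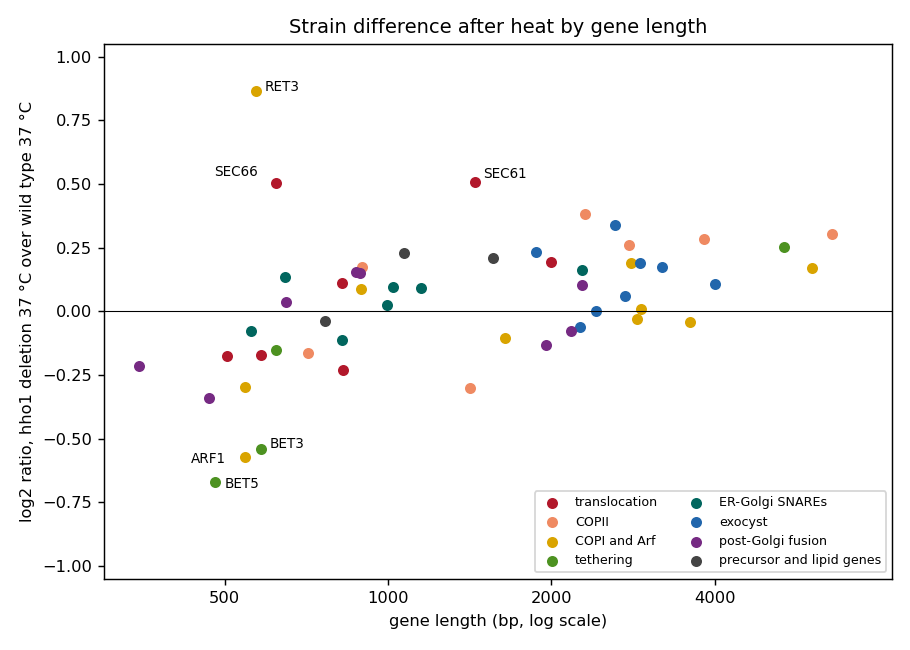
Log2 ratio of the hho1 deletion at 37 °C over the wild type at 37 °C (vertical axis) against gene length in bp (horizontal axis, log scale) for the 54 genes, coloured by role; each point is the mean of a gene's spots. Values are from the main setting, where the genes beyond 0.5 on either side are RET3, SEC66, SEC61, BET3, ARF1 and BET5. There no gene longer than 1443 bp, the length of SEC61, passes 0.5, but under median centring RET2, at 1641 bp, was at -1.02.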

How the data were processed

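The 3 deposited scanner files hold intensity values per spot and channel made with Agilent Feature Extraction 9.1.1.1, per the file headers: mean spot brightness, the median brightness around it, and processed signals that the software background-subtracted and dye-normalised. Their log10 ratio of red over green, also deposited, was used only to set the direction of the authors' deposited log2 table. Over all gene spots that table correlated with the scanner ratio at 0.964 (deletion at 37 °C), 0.733 (deletion at 25 °C) and 0.970 (wild type at 37 °C). Its column medians were -0.05, -0.015 and -0.007 and its slopes on the values used here 1.137, 1.266 and 1.115; no source used here gives its centring. The submitters' processing notes name limma.

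The analysis used R 4.3.3 and limma 3.58.1. Background was corrected by normexp with an offset of 50, which draws ratios of dim spots towards 0, and ratios were loess-normalised within arrays. Control and flagged spots had weight 0 in the loess and flagged spots were left out. Spots counted where, on each array compared, 1 channel or both stood well above background, and spots of a gene were averaged. Printed signals are loess-adjusted and hold the offset, so they are compared only within an array; channels of the same dye were set against each other across arrays as log2 values after Aquantile normalisation. With 1 array per group no test could be made, and the number of arrays limits the precision. The calculation was tested on simulated arrays, and 8 alternative settings were tried.

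The 54 genes, their roles and the other lists were chosen with earlier results of these data known. Genes given in full were those past the size rule, the highest and lowest of each role in the wild-type heat response, and the pairs ARF1 and ARF2, SSO1 and SSO2, SNC1 and SNC2; 5 further genes were named after their values were seen. Names and lengths were matched to the RefSeq table of assembly R64 by systematic name (5756 of 6256 genes and all 54 described). The genome build of the probes was not stated in the labels or headers, so coordinates are not printed, and planned promoter motif searches were not run.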

Additional observations from a re-analysis of the deposited data

Results flagged for a closer look

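For 7 genes and the medians of 2 roles the heat response had opposite signs in the strains, 1 array each. These differences were not tested, and the count of genes was not set against that over all genes. BET5 had -0.42 in the deletion and 0.09 in the wild type, a difference of -0.515. Its strain difference at 37 °C was not the same within arrays and in the same-dye comparison, as given in the report. SEC10 had 0.23 in the deletion and -0.004 in the wild type, a difference of 0.238. The other genes differed by 0.214 (SEC20), 0.163 (SEC23), 0.107 (SEC21), 0.102 (SEC18) and 0.094 (BOS1), deletion minus wild type, and in each of these the response was at most 0.15 in size in both strains. The COPII median was 0.006 in the deletion and -0.126 in the wild type, a difference of 0.132. The ER-Golgi SNARE median was 0.040 in the deletion and -0.147 in the wild type, a difference of 0.187. Over the settings the COPII medians ran from -0.19 to 0.09 in the deletion and from -0.20 to 0.26 in the wild type, and the ER-Golgi SNARE medians from -0.08 to 0.10 and from -0.25 to 0.19, so none of these 4 signs held in every setting. Between the wild-type reference channels of both deletion arrays, which hold the same RNA, the 54 genes differed with an SD of 0.168.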

How the results depend on the processing

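No paired analysis was possible because a single array stood for every group. Of 80 counts of risen or fallen genes under alternative settings, 70 kept within 1.5 times the main count, including counts that stayed at 0. Of the medians of gene groups, 216 were scored as moved from the main setting and 384 as the same. Of the values of named genes, 856 were scored as moved, 1605 as the same, 36 as stronger and 23 as weaker. In the wild-type heat response the count of risen genes was 1 with the scanner's processed signals, 2 with median centring and 1 with the deposited table, against 0 in the main setting, and the count of fallen genes was 1 with median centring and 1 in the same-dye comparison, against 2; of all genes 20.3%, 16.7% and 14.2% rose and 17.0% and 15.8% fell in those settings. In the deletion's heat response 4 genes fell with median centring, 4 with the deposited table and 1 between channels of the same dye, against 2, while 17.4%, 19.1% and 14.7% of all genes fell. For the deletion at 37 °C, 6 genes fell below the wild type at 25 °C with median centring, against 3 (19.1% of all genes), and 7 fell below the wild type at 37 °C, against 0. The median of all genes was -0.19 in the deletion's heat response and -0.37 in the strain difference at 37 °C under median centring, and 0.12 in the wild-type heat response with the processed signals; relative to it the 54 genes' median was -0.08, -0.22 and -0.22. In the wild-type heat response under median centring it was 0.20 above that of all genes, against -0.11 in the main setting. SNC1 reached 1.09, 1.35 and 1.02 in the wild type with the processed signals, median centring and the deposited table, BET1 reached -1.01 to -1.13 in the heated deletion over the wild type at 25 °C in 4 settings, and ARF1 reached -1.02 to -1.28 in the deletion's heat response in 3. SEC62 reached -1.12 and -1.02 in the deletion's heat response with median centring and the deposited table. Under median centring 10.3% of all genes fell in the strain difference at 37 °C and 9.3% rose in the deletion at 25 °C. Filters on dim spots changed no count, since all 54 genes were bright in every channel. Of the 54 genes, none called in the main setting changed sign in that comparison over the settings run. ARF2, which fell only under median centring in the strain difference at 37 °C (-1.227), ran up to 0.018 there. The causes were not tested.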

Other observations

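The 54 genes hold only part of each machine, and 61 further genes of the pathway were listed by role with earlier results of these data known. All 61 were on the array. In the deletion's heat response 3 rose, against 11.5% of all genes measured, and 3 fell, against 15.8%, with a median of -0.28. In the wild type 2 rose, against 11.6%, and 4 fell, against 16.4%, with a median of -0.29; under median centring 5 rose and 0 fell there, so the balance of the calls turned. The remaining parts of the translocation machinery (signal recognition particle, its receptor, signal peptidase and the smaller channel subunits) were below 0 for 14 of 14 genes in both strains, with medians of -0.60 in the deletion and -0.71 in the wild type; under median centring 12 of 14 were below 0 in the wild type. SSH1, the second ER channel, fell by 1.33 in the deletion and 1.31 in the wild type on the log2 scale, but missed the size rule in both between channels of the same dye, at -0.82 and -0.89, and in the wild type under median centring, at -0.947. SBH2, the beta subunit of that channel, fell by 1.15 in the deletion and had -0.38 in the wild type, and the particle subunits SRP68 and SRP21 had -0.58 and -0.93 in the deletion and fell by 1.27 and 1.08 in the wild type. Under median centring these wild-type values were -0.84 for both, short of the size rule, as was SRP21 without background correction (-0.945), whereas SRP21 passed the rule in the deletion in 4 settings (-1.02 to -1.08). SBH2 was at -0.76 in the deletion between channels of the same dye. GEA1, an Arf exchange factor of the early Golgi, fell by 1.09 in the deletion and 1.27 in the wild type, but was short of the rule in the deletion without background correction (-0.925) and in the wild type under median centring (-0.938). Of the 6 COPI partners listed, 5 were below 0 in both strains, with medians of -0.525 in the deletion and -0.481 in the wild type. Under median centring 3 of 6 were below 0 in the wild type. Of 5 listed regulators of exocytosis, 3 were below 0 in the deletion and 4 in the wild type. Their medians were -0.404 and -0.64, on the other side of 0 from the exocyst medians. Over the settings they ran from -0.488 to -0.329 and from -0.673 to -0.287.

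Genes that rose were few and of other roles. VTI1, a SNARE of Golgi and endosomal traffic, rose by 1.498 in the deletion and 1.1 in the wild type (0.915 there without background correction, short of the rule). ERV29, the cargo receptor that packs soluble glycoproteins into COPII vesicles, rose by 1.11 in the deletion and had 0.85 in the wild type; TRS23, a TRAPP subunit, rose by 1.02 in the deletion and had 0.83 in the wild type. In the deletion ERV29 was short of the rule under median centring (0.81) and in the deposited table (0.933), and TRS23 without background correction (0.919) and under median centring (0.82). In the wild type both passed it under median centring (1.204 and 1.156), ERV29 also between channels of the same dye (1.31) and TRS23 with the processed signals (1.06). GOS1, a Golgi SNARE, had 0.85 in the deletion and rose by 1.24 in the wild type (1 spot). Between channels of the same dye GOS1 had 0.84 in the wild type, short of the rule. Of the other SNARE genes listed, 6 of 9 were above 0 in the deletion and 7 of 9 in the wild type, and of 18 tether genes outside the 54, 8 and 4. For the tethers these counts turned with the settings, with 6 to 10 above 0 in the deletion and, under median centring, 10 in the wild type. In the main setting 2939 of 5918 genes measured were above 0 in the deletion and 2988 of 5974 in the wild type. None of these 61 genes passed the size rule in the deletion at 25 °C over the wild type at 25 °C or in the deletion at 37 °C over the wild type at 37 °C, except that 10 fell in the second of these under median centring.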
